A study of Mus musculus with 6 samples.

Results

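Polycomb repressive complex 1 (PRC1) was followed through 10 of its genes in tailbuds of mouse embryos that carry either the normal Smchd1 gene or its MommeD43 allele. The genes were listed by name: the catalytic subunits Rnf2 and Ring1, the PCGF subunits Bmi1, Pcgf2, Pcgf3 and Pcgf5, the chromobox subunits Cbx2, Cbx7 and Cbx8, and the polyhomeotic subunit Phc1. Each of the 10 names matched 1 row of the 35591 rows of the deposited table, and all 10 were among the 13617 autosomal genes with enough reads to be tested. RNA was sequenced from tailbuds, which contain the presomitic mesoderm, dissected from embryos with 8 somites at embryonic day 8.5. Libraries of 3 embryos were wild type (Smchd1+/+, WT) and libraries of 3 embryos were homozygous for the mutant allele (Smchd1MommeD43/MommeD43, MommeD43), all on the FVB/NJ background and without any treatment. MommeD43 came from a chemical mutagenesis screen and is carried by all cells of the embryo. According to the study its variant in Smchd1 is the single exonic one of the mapped interval, which also holds other variants outside exons. The source field of the labels names neural stem cells (NSCs), whereas their tissue field and titles name the tailbud. In each group replicate 1 was a male and replicates 2 and 3 were females. The labels name 1 mother for both males and 4 mothers for the 4 females.

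PRC1 attaches ubiquitin to histone H2A (H2AK119ub) through RING1B, the product of Rnf2, or through RING1A, the product of Ring1. A PCGF protein pairs with the RING protein and decides the type of complex. Canonical complexes hold BMI1 or PCGF2 with a CBX protein, which reads the H3K27me3 mark, and a PHC protein, which compacts chromatin. Variant complexes hold RYBP or YAF2 in place of CBX, and those with PCGF3 or PCGF5 deposit much of the H2AK119ub on the inactive X chromosome, the mark on which recruitment of SMCHD1 there depends. In the embryonic axis PRC1 is known above all for keeping posterior Hox genes silent.

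The depth of the libraries, recovered from the values, ranged from 10957916 to 47298348 reads, and the shallowest was MommeD43 replicate 1. All 8 markers of tailbud mesoderm and its progenitors (among them T, Tbx6 and Msgn1) were detected in every library, with a summed level of 522 to 752 RPKM (reads scaled to exon length and library size) in WT and 534 to 651 RPKM in MommeD43. The highest sum was that of WT replicate 1. Markers of formed somites summed to at most 2.40 RPKM, and Pax1 and Uncx had fewer than 3 reads in each library. Primitive blood markers varied most, from 5.47 to 469 RPKM in WT and from 13.4 to 208 RPKM in MommeD43, with the lowest sum in WT replicate 1. The 4 yolk sac endoderm markers (Afp, Ttr, Apoa1 and Apoa4) summed to 94.3, 167 and 187 RPKM in WT replicates 1, 2 and 3 and to 312, 32.9 and 21.9 RPKM in the MommeD43 replicates, so that they were lower in the mutant females and higher in the mutant male. Germ cell markers summed to 6.54 to 9.09 RPKM in WT and 9.52 to 12.4 RPKM in MommeD43, without overlap, whereas the sums of the other marker sets overlapped. Of the germ cell markers, Dppa3 and Dnd1 did not overlap between groups, and Prdm1 and Nanos3 did. Among all genes tested, 7.08% had groups without overlap. The part of germ cells in the values of the PRC1 genes was not tested. The tissue is a mixture of cells, so that fewer cells of a type and less RNA per cell cannot be told apart.

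The 10 PRC1 genes spanned a wide range of levels, and their order was nearly fixed from embryo to embryo. Averaged over the 6 libraries, Cbx2 was highest with 35.6 ± 2.12 RPKM (SD, n = 6), ahead of Rnf2 with 31.1 ± 2.31 and Phc1 with 22.5 ± 1.89 RPKM. Pcgf2 (14.5 RPKM), Pcgf3 (9.53 RPKM), Bmi1 (6.95 RPKM) and Ring1 (4.38 RPKM) occupied the middle. At the low end were Pcgf5 (2.33 RPKM), Cbx7 (2.03 RPKM) and Cbx8 (0.870 RPKM). Each gene was above the next in this order in 6 of 6 libraries, except that Pcgf5 was above Cbx7 in 4. The RPKM ranges over the 6 libraries overlapped for Cbx2 with Rnf2 and for Pcgf5 with Cbx7, and for no other neighbours.

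**Figure D1:**
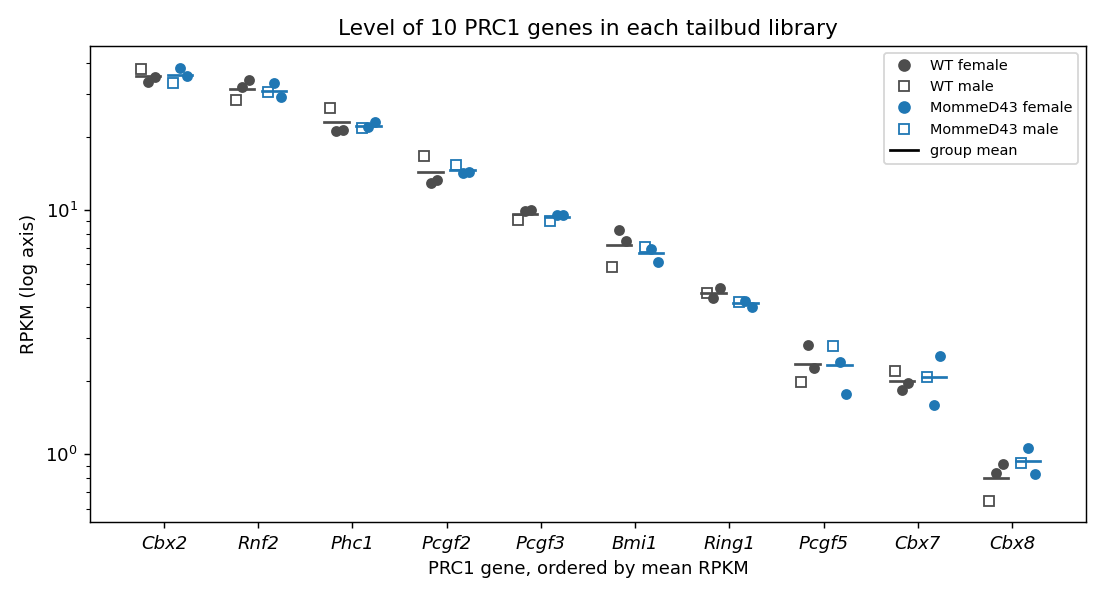
Level of the 10 PRC1 genes (horizontal axis, ordered by mean) in RPKM on a log axis, 1 point per library, with WT in grey, MommeD43 in blue, females as filled circles, males as open squares and lines at the group means. The genes descend from Cbx2 at 35.6 RPKM to Cbx8 at 0.870 RPKM, and within a gene the groups overlap except for Ring1.

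Genotype was then compared gene by gene, to ask whether the MommeD43 variant of SMCHD1 goes along with a change in the PRC1 genes themselves. None of the 10 genes passed an adjusted p of 0.05 (limma on log2 RPKM, Benjamini-Hochberg over all autosomal genes tested), and the adjusted p was 0.999 for each. Over all 13617 genes the share called was 0%, and an unadjusted p under 0.05 was reached by 0 of the 10 PRC1 genes and by 2.4% of all genes (0.977% lower and 1.42% higher in MommeD43). With voom on recovered reads, 0 of the 10 were called and 0 had an unadjusted p under 0.05, where 3.12% of all genes had one. The log2 fold change was positive for 4 PRC1 genes and negative for 6, with a median of -0.024 beside 0.0025 for all genes tested. The 95% intervals of the 10 genes lay between 0.712-fold and 1.65-fold.

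**Figure D2:**
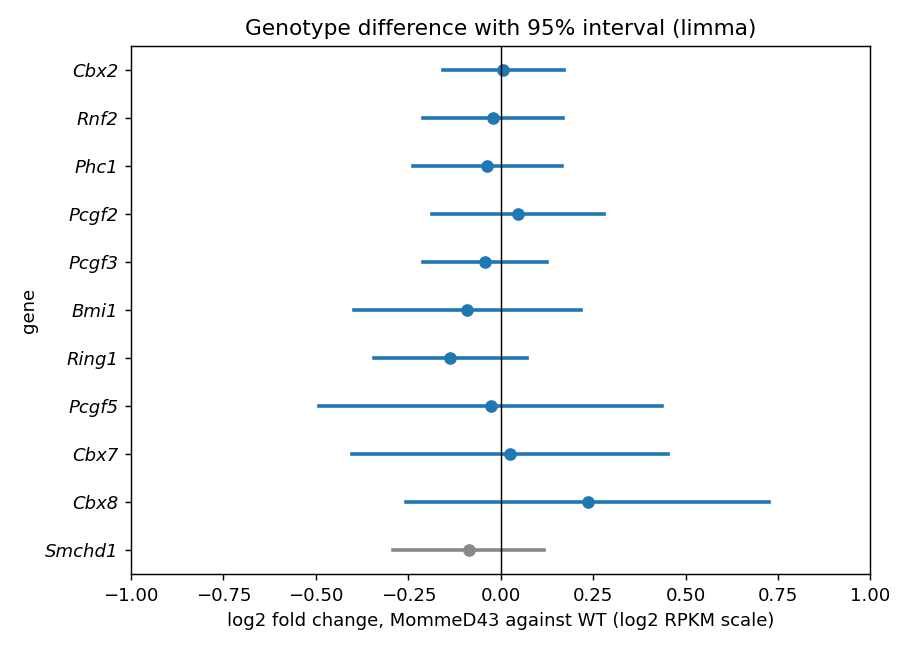
Log2 fold change of MommeD43 against WT (horizontal axis, log2 RPKM scale) for the 10 PRC1 genes and, in grey, Smchd1, with points for the estimate and bars for the 95% interval from limma (3 libraries per group). All bars cross 0, and the widest belong to the low genes Pcgf5, Cbx7 and Cbx8.

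Smchd1 itself, the gene that carries the allele, was at 7.31, 8.58 and 8.31 RPKM in WT replicates 1, 2 and 3. MommeD43 replicates 1, 2 and 3 had 7.94, 7.66 and 7.15 RPKM. The groups overlapped, with a log2 fold change of -0.087 ± 0.089 (SE, 95% interval -0.29 to 0.12). The RNA level of a gene with a coding variant does not check the label.

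Rnf2 encodes RING1B, the main ubiquitin ligase of PRC1 in embryonic cells. The gene lies on chromosome 1 from 151458004 to 151500955 (GRCm38, minus strand), and 3.83% of its exon sequence is shared with Trmt1l on the other strand. It was at 28.2, 31.8 and 34.0 RPKM in WT replicates 1, 2 and 3, and at 30.5, 33.2 and 29.0 RPKM in the corresponding MommeD43 replicates. WT replicate 1 was the lowest and WT replicate 3 the highest of the 6, with all MommeD43 embryos between them. The log2 fold change was -0.020 ± 0.083 (SE, 95% interval -0.21 to 0.17).

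Ring1, which encodes the second ligase RING1A, was the only gene of the 10 whose groups did not overlap. It lies on chromosome 17, 34020792 to 34024680, the chromosome that also carries Smchd1 (71344489 to 71475343). Smchd1 is inside the interval to which the study mapped MommeD43, and Ring1 is outside it. Its level was 4.56, 4.39 and 4.80 RPKM in the WT replicates and 4.22, 4.26 and 4.03 RPKM in the MommeD43 replicates, so that each mutant embryo was lower than each WT embryo. Groups without overlap and lower in MommeD43 were found for 3.55% of all genes tested, for 3.53% with MommeD43 higher, and for 7.08% in either direction. The log2 fold change of -0.14 ± 0.090 (SE) had a 95% interval from -0.34 to 0.071. Ring1 held 150 reads in the shallowest library, MommeD43 replicate 1. The exact (Clopper-Pearson) 95% interval there was 3.57 to 4.95 RPKM from counting error alone, which contains the values of all 6 embryos. The interval of WT replicate 2 also contained them all. Those of WT replicates 1 and 3 and of MommeD43 replicates 2 and 3 did not. The interval of MommeD43 replicate 2, the deepest library, lay below the 4.80 RPKM of WT replicate 3. That of WT replicate 1 lay above the 4.03 RPKM of MommeD43 replicate 3. Leaving out 1 library at a time moved the log2 fold change of Ring1 between -0.17 and -0.10, without a call.

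The ratio of Rnf2 to Ring1 RPKM was 6.19, 7.26 and 7.08 in the WT replicates and 7.22, 7.79 and 7.19 in the MommeD43 replicates. Rnf2 made up 86.1% to 88.6% of the RNA for the catalytic pair. The group means of this share were 87.2% ± 0.975 in WT and 88.1% ± 0.464 in MommeD43 (SD, n = 3 each), and the groups overlapped. The start regions of this pair of paralogues are shown because their RNA levels lie so far apart. They are RefSeq promoter sequence of GRCm38.p6, up to 250 bases before the annotated start and outside annotated exons, on the minus strand for both genes, with CpG dinucleotides in capitals. That of Rnf2 is chr1:151500992-151501241 and that of Ring1 is chr17:34024681-34024930.
Rnf2: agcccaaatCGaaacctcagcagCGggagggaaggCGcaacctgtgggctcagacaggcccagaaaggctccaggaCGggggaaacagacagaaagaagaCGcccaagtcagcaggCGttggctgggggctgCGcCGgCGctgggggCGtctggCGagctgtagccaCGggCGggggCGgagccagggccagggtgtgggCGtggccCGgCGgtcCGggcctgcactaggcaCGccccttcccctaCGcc
Ring1: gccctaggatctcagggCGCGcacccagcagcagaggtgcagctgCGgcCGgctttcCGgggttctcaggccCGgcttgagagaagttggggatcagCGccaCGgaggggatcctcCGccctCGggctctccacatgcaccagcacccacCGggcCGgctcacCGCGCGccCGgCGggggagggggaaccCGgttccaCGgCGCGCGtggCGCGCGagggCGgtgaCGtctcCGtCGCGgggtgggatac
Although Ring1 was the lower gene, its stretch holds 30 CpG against 20 in that of Rnf2. In the 300-base windows around the starts (250 bases before and 50 after) the numbers were 37 and 30, where 5.58% and 11.7% of all 32851 promoter windows hold as many, and the median window holds 7.

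Of the PCGF genes, Pcgf2 and Bmi1 encode the subunits of canonical PRC1. Pcgf2 (chromosome 11, 97688823 to 97700497) was at 16.7, 12.9 and 13.3 RPKM in the WT replicates and at 15.4, 14.2 and 14.4 RPKM in the MommeD43 replicates. Its highest value was that of the WT male and its lowest that of a WT female, so that the WT embryos spanned the mutant ones. MommeD43 differed from WT by 0.047 ± 0.10 on the log2 scale (SE, 95% interval -0.19 to 0.28).

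Bmi1 (chromosome 2, 18677018 to 18686629) went the other way across the WT embryos, with 5.83 RPKM in the male and 8.27 and 7.49 RPKM in the females. The MommeD43 replicates were at 7.05, 6.92 and 6.13 RPKM, again within the WT range. Here the log2 fold change was -0.090 ± 0.13 (SE, 95% interval -0.40 to 0.22). The X-linked pseudogene Gm5946 is 97.0% identical to Bmi1 RNA over 2658 bases, and how reads were divided between them is not given in the sources used here, so that the level of Bmi1 is uncertain.

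WT replicate 1 decided much of the spread of this pair. The ratio of Pcgf2 to Bmi1 RPKM was 2.86 in that library, 1.56 and 1.78 in the WT females, and 2.18, 2.06 and 2.35 in the MommeD43 replicates. Without WT replicate 1, the log2 fold change was 0.16 ± 0.066 (SE) for Pcgf2 and -0.23 ± 0.097 (SE) for Bmi1. Both then had an unadjusted p under 0.05, as did 6.93% of all genes without that library, and both had an adjusted p of 0.695 (limma, Benjamini-Hochberg). That library was also the highest in tailbud markers, with T at 188 RPKM against 117 to 141 RPKM in the others, and the lowest in blood markers, and the part of tissue composition in these values was not tested.

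The start regions of Bmi1 and Pcgf2 are shown as the other pair of paralogues that take the same place in the complex. They are chr2:18676768-18677017 on the plus strand and chr11:97699649-97699898 on the minus strand, again in GRCm38.p6 from RefSeq with CpG in capitals. The RefSeq start used for Pcgf2 lies within the annotated gene, so that its stretch is intronic for longer transcripts.
Bmi1: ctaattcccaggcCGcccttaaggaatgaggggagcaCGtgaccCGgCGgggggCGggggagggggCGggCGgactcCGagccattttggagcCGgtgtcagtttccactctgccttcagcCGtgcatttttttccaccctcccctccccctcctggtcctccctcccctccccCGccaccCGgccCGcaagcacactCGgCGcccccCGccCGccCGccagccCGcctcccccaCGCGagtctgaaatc
Pcgf2: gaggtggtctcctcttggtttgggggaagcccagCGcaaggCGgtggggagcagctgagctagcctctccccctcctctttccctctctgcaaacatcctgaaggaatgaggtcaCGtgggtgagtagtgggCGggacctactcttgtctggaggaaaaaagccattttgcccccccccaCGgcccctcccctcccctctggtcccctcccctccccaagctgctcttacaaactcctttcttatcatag
The stretch of Bmi1 holds 21 CpG and that of Pcgf2 holds 5, the reverse of the order of their RNA levels. Both contain the palindromic E-box CACGTG, the letters to which dimers of MAX are known to bind, beginning 215 bases before the start of Bmi1 and 137 bases before that of Pcgf2. This motif, looked for after the sequences were seen, was present in 3 of the 11 windows of the 9 PRC1 genes with a window (the third being Cbx8). It was present in 7.15% of all windows. The motif itself holds a CpG, and 10 of the 11 windows were above the median CpG number, so that all windows are not a like baseline.

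Pcgf3 and Pcgf5 encode the PCGF subunits of the variant complexes that act upstream of SMCHD1 on the inactive X chromosome. Of the 10 genes, Pcgf3 (chromosome 5, 108461232 to 108506976) had the smallest SD within groups on the log2 scale after Ring1 (0.067 against 0.056). It was at 9.07, 9.94 and 10.01 RPKM in the WT replicates and 9.01, 9.58 and 9.58 RPKM in the MommeD43 replicates. In both groups the male was the lowest. The log2 fold change was -0.042 ± 0.073 (SE), and its 95% interval of -0.21 to 0.13 corresponds to 0.865-fold to 1.09-fold.

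Pcgf5 (chromosome 19, 36348309 to 36460970) was lower and more variable, with 1.98, 2.80 and 2.26 RPKM in WT and 2.78, 2.40 and 1.77 RPKM in MommeD43. The lowest and the second highest value were both from mutant embryos, and the groups overlapped. Its log2 fold change of -0.027 ± 0.20 (SE) had a 95% interval of -0.49 to 0.44. The SD within groups was 0.29 on the log2 scale for Pcgf5 and 0.067 for Pcgf3, where the median over all genes tested was 0.14. Smaller SDs were found for 77.1% and 14.0% of genes tested, respectively. The reads behind Pcgf5 numbered 293 or more in each library, which gives a counting interval of at most 11.6% to either side. This interval does not cover reads shared with other genes. Up to 152 of the 12629 exon bases of Pcgf5 closely match RNA of many other genes, among them Med16 (96.7% identity). How such reads were counted is not given in the sources used here.

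Together Pcgf3 and Pcgf5 took 22.9% ± 2.22 of the RPKM of the 6 PCGF genes in WT and 22.7% ± 0.401 in MommeD43 embryos (SD, n = 3 each). Bmi1 and Pcgf2 took 40.9% ± 0.464 and 41.4% ± 1.16. Neither share separated the groups. The order of these shares rests on exon length, 9544 bases for Pcgf3 and 12629 for Pcgf5 against 3526 for Pcgf2 and 3974 for Bmi1. In CPM, WT replicate 1 held 86.6 for Pcgf3 and 25.0 for Pcgf5, against 58.7 for Pcgf2 and 23.2 for Bmi1. Pcgf3 and Pcgf5 then took the larger share. The ratio of Pcgf3 to Pcgf5 ranged from 3.24 in MommeD43 replicate 1 to 5.41 in MommeD43 replicate 3, so that mutant embryos held both extremes. The remaining PCGF genes were Pcgf6, with a mean of 25.3% of the family over the 6 libraries, and Pcgf1, with 10.8%.

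**Figure D3:**
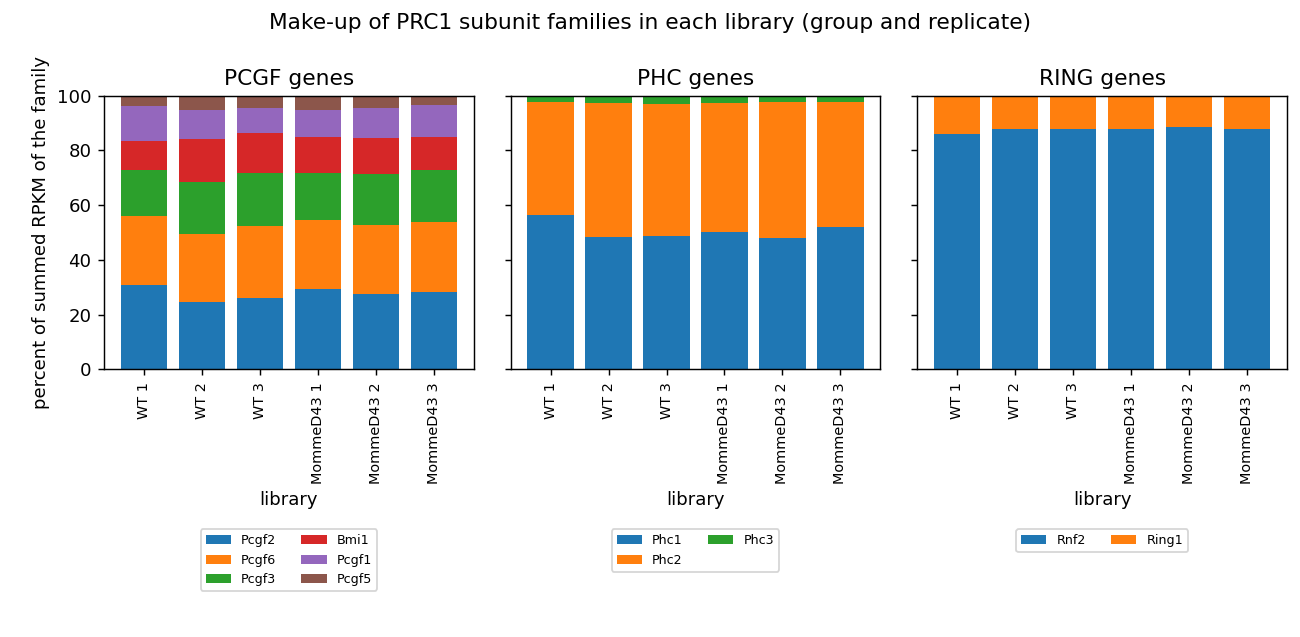
Share of each gene in the summed RPKM of its subunit family (vertical axis, percent) for the PCGF, PHC and RING genes, 1 bar per library named by group and replicate. Rnf2 fills 86.1% to 88.6% of the RING bars, and Phc1 and Phc2 divide the PHC bars nearly evenly.

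The CBX genes encode the chromodomain proteins that bind canonical PRC1 to H3K27me3. Cbx2 (chromosome 11, 119022962 to 119031270), the highest of the 10 genes, was at 37.8, 33.5 and 35.2 RPKM in the WT replicates and 33.2, 38.4 and 35.4 RPKM in the MommeD43 replicates. Lowest and highest values both came from mutant embryos. Cbx2 had a log2 fold change of 0.0063 ± 0.071 (SE, 95% interval -0.16 to 0.17).

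Cbx8, its neighbour on the same chromosome (119036305 to 119040969), was the lowest of the 10 genes. The WT embryos had 0.647, 0.841 and 0.917 RPKM and the MommeD43 embryos 0.919, 1.06 and 0.832 RPKM, with the WT male lowest and MommeD43 replicate 2 highest. This gave the most positive estimate of the 10, a log2 fold change of 0.24 ± 0.21 (SE, 95% interval -0.25 to 0.73), with overlapping groups. Counts were small, with 37 reads in MommeD43 replicate 1 and an exact (Clopper-Pearson) 95% interval there of 0.647 to 1.27 RPKM. Without WT replicate 1 the estimate was 0.088 ± 0.21 (SE). Cbx2 exceeded Cbx8 by 36.0-fold to 58.4-fold within a library.

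Cbx7 (chromosome 15, 79915807 to 79971119), the CBX gene known for its high level in pluripotent stem cells, had 2.19, 1.84 and 1.97 RPKM in the WT replicates and 2.08, 1.59 and 2.52 RPKM in the MommeD43 replicates. MommeD43 replicates 2 and 3 were the lowest and the highest library. Its log2 fold change was 0.025 ± 0.19 (SE, 95% interval -0.40 to 0.45), and it changed sign when either WT replicate 2 or MommeD43 replicate 3 was left out and with voom. The ratio of Cbx2 to Cbx7 RPKM was 17.8 ± 0.505 in WT and 18.0 ± 5.32 in MommeD43 (SD, n = 3 each), with overlap.

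Phc1 (chromosome 6, 122317731 to 122340561) encodes a polyhomeotic protein whose SAM domain polymerises and clusters PRC1. Its level was 26.1, 21.2 and 21.3 RPKM in the WT replicates and 21.7, 21.9 and 23.0 RPKM in the MommeD43 replicates. WT replicate 1 stood above the other 5 libraries, which differed little. The log2 fold change was -0.036 ± 0.088 (SE, 95% interval -0.24 to 0.17), and it turned to 0.064 ± 0.057 (SE) without WT replicate 1. Phc1 made up 56.3% of the RPKM of Phc1, Phc2 and Phc3 in WT replicate 1 and 48.0% to 52.1% in the other libraries. The mean share was 51.1% ± 4.46 in WT and 50.1% ± 2.02 in MommeD43 (SD, n = 3 each).

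Because the mark laid by PRC1 recruits SMCHD1 to the inactive X chromosome, which only females have, the change with genotype was also set side by side for males and females. The male pair was 1 WT and 1 MommeD43 embryo, and the fit had 2 residual degrees of freedom. The spread behind its standard errors and p-values came wholly from the 2 females of each group, so that these values assume that males vary like females. In none of the 10 genes was the male change different from the female one at an adjusted p under 0.05 (limma, Benjamini-Hochberg), where 0.272% of all genes did, and the smallest adjusted p was 0.364. At an unadjusted p under 0.05 there were 3, Phc1, Bmi1 and Cbx2, beside 10.8% of all genes tested.

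For Bmi1 the log2 fold change was -0.27 in the females and 0.27 in the male pair, a difference of 0.55 ± 0.18 (SE). Phc1 had 0.080 in the females and -0.27 in the male pair, and Cbx2 had 0.10 and -0.19. Pcgf5 had the widest gap of the 10, at -0.29 in the females and 0.49 in the male pair, with an SE of 0.35 on the difference of 0.77. Only Ring1, Pcgf3 and Cbx8 had the same sign in both sexes. Sex, mother and the make-up of a single dissection cannot be told apart in the male pair, and the WT male is the library with the most tailbud marker RNA. Yolk sac endoderm markers also ran opposite ways in the sexes, at 94.3 RPKM in the WT and 312 RPKM in the MommeD43 male against 167 and 187 RPKM in the WT and 32.9 and 21.9 RPKM in the MommeD43 females. Their part in the sex differences of the PRC1 genes was not tested.

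**Figure D4:**
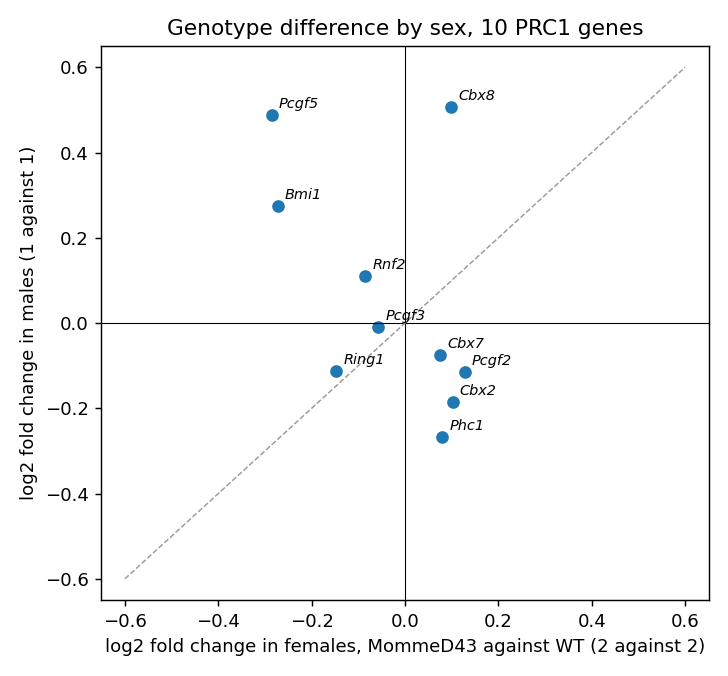
Log2 fold change of MommeD43 against WT in the females (horizontal axis, 2 against 2) and in the males (vertical axis, 1 against 1) for the 10 PRC1 genes, with a dashed line where both are equal. Ring1 and Pcgf3 lie near the line, whereas Bmi1 and Pcgf5 are negative in females and positive in males.

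The other genes of the PRC1 system were taken from a list of 32 autosomal subunits, partners and H2AK119 deubiquitination factors, all of which had enough reads. Auts2, a subunit of PCGF3 and PCGF5 complexes known mainly from neurons, reached the minimum level for testing in MommeD43 libraries alone. It had 8 to 14 reads per WT library and 8 to 38 per MommeD43 library, and it is left out of the counts here because its entry already required MommeD43 to be higher. Of the other 31, none passed an adjusted p of 0.05 (limma, smallest adjusted p 0.999) and none had an unadjusted p under 0.05. With voom 0 were called, and Asxl2 had an unadjusted p under 0.05, beside 3.12% of all genes. Positive log2 fold changes were found for 9 and negative ones for 22, with a median of -0.022. Over all genes tested, 6945 were positive and 6672 negative, with a median of 0.0025. The estimates share the same 6 libraries, so that their signs are not independent. Groups did not overlap for 2 of the 31, beside 7.08% of all genes, and this pair was picked with its values in view. Asxl2, a partner of the deubiquitinase BAP1, had 3.69, 3.31 and 3.39 RPKM in the WT replicates, against 3.11, 2.94 and 2.80 RPKM in MommeD43, a log2 fold change of -0.23 ± 0.11 (SE). Phc3, the least abundant PHC gene, had 1.16, 1.22 and 1.27 RPKM in the WT replicates, against 1.12, 1.04 and 1.01 RPKM in MommeD43.

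Among the 4 further genes of canonical PRC1, the most abundant were Phc2, at 20.5 ± 1.22 RPKM over the WT and 21.1 ± 1.34 RPKM over the MommeD43 embryos, and Scmh1, at 3.72 ± 0.0645 and 3.65 ± 0.472 RPKM (SD, n = 3 each). Yaf2 and Rybp, which replace CBX proteins in variant complexes, had log2 fold changes of -0.0079 ± 0.12 and -0.11 ± 0.098 (SE). Of the 4 genes of the PCGF1 complex, the adaptor Skp1a had a mean of 218 ± 6.58 RPKM over the WT and 215 ± 3.62 RPKM over the MommeD43 embryos, and the deubiquitinase Usp7 at 41.5 ± 1.74 and 40.9 ± 1.58 RPKM. All 4 had slightly negative estimates, from -0.092 for Kdm2b to -0.019 for Usp7. Pcgf1 and the CpG-binding subunit Kdm2b were the only genes of the 31 whose difference between male pair and females had an unadjusted p under 0.05. Of all genes tested, 10.8% had one. The adjusted p was 0.343 for Pcgf1 and 0.451 for Kdm2b (limma, Benjamini-Hochberg).

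The 7 partners of PCGF3 and PCGF5 were led by the casein kinase 2 subunits Csnk2b (log2 fold change 0.070 ± 0.056) and Csnk2a1 (-0.066 ± 0.061). The 10 genes of the PCGF6 complex, which binds DNA through MAX with MGA and through E2F6 with TFDP1, were led by Tfdp1 (0.024 ± 0.061) and Hdac2 (-0.025 ± 0.054, SE). Their estimates lay between -0.12 and 0.047. The 4 deubiquitination genes were led by Bap1, the steadiest of all the genes listed, at 36.7 ± 0.652 RPKM over the WT and 36.2 ± 0.0244 RPKM over the MommeD43 embryos (SD, n = 3 each), and by Asxl1, with a log2 fold change of -0.061 ± 0.097 (SE). Hnrnpk, whose product links Xist RNA to PCGF3 and PCGF5 complexes, was at 182 ± 1.75 and 180.3 ± 5.77 RPKM, with a 95% interval of 0.917-fold to 1.07-fold.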

How the data were processed

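RNA was measured in tailbuds of 3 WT and 3 MommeD43 embryos. Per the labels the libraries were made with a stranded mRNA kit. The study describes trimming with TrimGalore 0.4.4, mapping with hisat2 2.0.5 to GRCm38.p6 and quantification in SeqMonk. The deposited values are log2 RPKM, made by the authors from exon reads, exon length and library size. Their 2 mean columns were not used.

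Of 35591 rows, 35555 matched GENCODE M21 by identifier (99.4% with identical coordinates). An undetected gene sat at 0.9 read, which gave library totals and reads; 99.0% of 105833 detected values were whole within 0.02. Genes needed the CPM of 10 reads in the median library in 3 libraries and 15 reads in all, which left 13617 autosomal genes. Fits used limma 3.58.1 in R 4.3.3 on the log2 RPKM as deposited, with the prior variance trended on mean level and no pseudocount, two-sided, with Benjamini-Hochberg adjustment. In simulated data with 200 genes changed 2-fold among 13617, 93% were recovered with 8 calls among unchanged genes, and 0 calls were made when none was changed. Every simulated gene had the same SD of 0.14 on the log2 scale. The 93% therefore does not carry over to smaller changes or to genes that vary more, such as Pcgf5 (0.29).

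Copies were sought with blastn 2.17.0 (95% identity, 100 bases). Promoters came from RefSeq tables (9 of 10 genes matched). Python 3.11.15 was used for the remaining steps. Each library was a separate embryo, and the mean chi-square per gene between libraries was 4.69 to 24.8, above the sampling noise. Counting intervals are exact (Clopper-Pearson, 95%) and cover counting error only. Markers counted as detected in a library with at least 3 reads. Shares are of summed RPKM, which depends on the exon length used, and are described without a test. The share planned for Cbx2 among the CBX genes is not reported here. The 10 genes, the lists and the tests were chosen with earlier results of these data known. Named were the 10 genes, Smchd1, the 2 most abundant genes of each further list, any with an unadjusted p under 0.05, and paralogues needed for shares. Alternatives were median-ratio scaling, pseudocounts, filters, a sex term, fits of females alone, a replicate block, leaving out each library, X-linked genes included, CPM in the shares and voom on recovered reads.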

Additional observations from a re-analysis of the deposited data

How the results depend on the processing

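Of the 10 PRC1 genes, 0 were called in each of the 16 alternative fits, and of the 32 other genes 0 as well. The smallest adjusted p of a PRC1 gene was 0.57, for Bmi1 in females alone (limma), a fit that called 10 genes in all. With a minimum mean of 1 RPKM, Cbx8 was not tested. Signs near 0 were not stable. The median log2 fold change of the 10 genes was 0.0088 in females alone, and -0.052 to -0.0080 when 1 library was left out, the lowest without MommeD43 replicate 2. Phc1 was at 0.080 in females alone. With voom, Rnf2 was at 0.0091, Pcgf5 at 0.0091 and Cbx7 at -0.13. With 1 library left out, the log2 fold change ranged from -0.094 to 0.041 for Rnf2, -0.23 to 0.017 for Bmi1, -0.022 to 0.16 for Pcgf2, -0.17 to 0.15 for Pcgf5, -0.047 to 0.056 for Cbx2, -0.13 to 0.20 for Cbx7 and -0.089 to 0.064 for Phc1. Ring1, Pcgf3 and Cbx8 kept their sign in every alternative run. The difference in each share between MommeD43 and WT moved by less than the SD within groups in each alternative. With CPM the shares themselves differ, because reads are then not scaled to exon length. Pcgf3 and Pcgf5 then took a larger share than Bmi1 and Pcgf2, the reverse of their order in RPKM. The cause of these changes was not tested.

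By label, the replicate 1 embryos share a mother and sex, whereas replicates 2 and 3 share no mother across groups, and the numbers were not treated as pairs. The correlations of deviations from group means were -0.026, 0.17 and -0.17 for replicates 1, 2 and 3, and of the WT libraries only replicate 2 correlated best with its own number. With the replicate block, the number of PRC1 genes called was 0 and the median log2 fold change was -0.024, with 307 genes at an unadjusted p under 0.05 in place of 327. Of the 10 genes, depth limits Cbx8 most, with counting intervals of up to 33.7% to either side, and among the other PRC1 genes Auts2 had as few as 8 reads in a library.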
